A study of Mus musculus with 6 samples.

Results

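The receptors described here signal through the inhibitory G proteins Gi and Go in neurons: the group II metabotropic glutamate receptors Grm2 and Grm3, the group III receptors Grm4, Grm7 and Grm8, the adenosine receptor Adora1, the cannabinoid receptor Cnr1, the muscarinic receptor Chrm2, the nociceptin receptor Oprl1 and the adrenergic receptor Adra2a. They were taken as every probe of the array annotated to 1 of these 10 symbols and to no other gene. This gave 7 of the 18193 genes with such a probe, measured by 12 of the 45037 probes. Adora1, Chrm2 and Adra2a had no such probe and were not analysed here. Grm7 and Oprl1 had 3 probes each, Cnr1 had 2, and Grm2, Grm3, Grm4 and Grm8 had 1 each. Brain tissue, named as cerebellum in the title of the series, was taken from 3 wild-type mice and 3 mice deficient in Gb5, the G protein beta subunit encoded by Gnb5. The labels call the arrays of a genotype biological replicates and the mice littermates matched for age and sex, and they give neither the age, the strain nor the allele that removed Gb5. Total RNA was labelled with biotin and hybridised to 1 single-colour expression array per mouse. Arrays are numbered here as in the labels, 1 to 3 for wild type and 4 to 6 for knockout.

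A receptor coupled to Gi or Go, once it binds its ligand, makes the alpha subunit exchange GDP for GTP and sets free the beta-gamma dimer. The alpha subunit lowers cyclic AMP through adenylyl cyclase, and the dimer opens GIRK potassium channels and restrains presynaptic calcium channels. Gb5 is known for its stable complexes with RGS proteins of the R7 family, which speed up GTP hydrolysis by these alpha subunits and so shorten the signal of such receptors. In the cerebellum, Grm2 is known from Golgi cells and unipolar brush cells, Grm3 from Golgi cells and glia, Grm4 from the parallel fibre terminals of granule cells, and Cnr1 from the terminals of parallel fibres, climbing fibres and interneurons.

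The upstream sequences of the group II pair are shown because Grm2 had the largest difference between genotypes of the 12 probes and Grm3, its closest relative, had the array order most like that of Grm2 among the measured receptors. Each is the 250 bases before the gene start in RefSeq (GRCm38.p6), on the minus strand, at chr9:106656110-106656359 for Grm2 and chr5:9725353-9725602 for Grm3. Capitals mark the GC box GGGCGG on either strand.
Grm2: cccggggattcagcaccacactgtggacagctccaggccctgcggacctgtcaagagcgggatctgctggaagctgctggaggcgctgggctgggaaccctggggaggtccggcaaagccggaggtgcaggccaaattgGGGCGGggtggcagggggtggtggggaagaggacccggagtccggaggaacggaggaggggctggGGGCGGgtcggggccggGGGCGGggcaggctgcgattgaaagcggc
Grm3: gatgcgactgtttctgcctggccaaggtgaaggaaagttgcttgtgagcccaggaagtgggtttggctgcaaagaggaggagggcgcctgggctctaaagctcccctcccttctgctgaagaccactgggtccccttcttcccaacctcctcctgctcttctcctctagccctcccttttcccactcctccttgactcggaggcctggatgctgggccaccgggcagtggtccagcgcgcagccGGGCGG
The Grm2 window held 3 GC boxes, 16 CpG dinucleotides and 71.2% G or C. The Grm3 window held 1 GC box, at its end next to the gene start, with 8 CpG dinucleotides and 62.4% G or C. Over all 32851 windows of the table the medians were 6 CpG dinucleotides and 52.4%, and 32.7% of windows held a GC box. The cyclic AMP response element was searched on both strands as TGACGTCA, found in 1.55% of all windows, and as its shorter form TGACG, which the longer form contains and which was found in 17.8%. Of the 7 measured receptors 6 had a window, 13 windows in all, of which the 2 of Grm7 overlap. The longer form was in none of these 13 windows, the shorter form was in 1, a window of Grm8, and the GC box was in 6. These are counts of letters, and the arrays did not measure the promoters.

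Values are log2 signals, so a difference of 1 is a doubling. Array medians lay between 6.48 and 6.57, and Pearson's r over all probes was between 0.991 and 0.997 for the 15 pairs of arrays. Probes differ in how brightly they read the same amount of RNA, so a level is compared between genotypes for 1 probe and not between probes; the percentile given with a level is the share of all probes with a lower mean in wild type. The Gnb5 probe that represented the gene averaged 8.67 ± 0.15 on the wild-type and 3.32 ± 0.34 on the knockout arrays (SD, n = 3 each). Markers of cerebellar cells were bright: all 7 measured granule cell genes and all 5 measured Purkinje cell genes lay above the 50th percentile, with median percentiles of 98.4 and 96.8. Of the 5 measured forebrain genes, all lay above the 50th percentile too, with a median of 63.4. Of the 6 measured brainstem and midbrain genes, 5 were above the low-signal limit and above the 50th percentile, and the median of all 6 was 81.9. The mean level of the 5 lay between 9.72 and 10.24 on the wild-type arrays and between 9.82 and 10.11 on the knockout arrays. The mean levels of 3 marker lists were lower on every knockout array than on every wild-type array: oligodendrocyte (11.38 to 11.55 against 11.57 to 11.63), meninges and fibroblast (9.97 to 10.27 against 10.30 to 10.44) and blood (7.57 to 7.86 against 8.11 to 8.46). The list of Golgi cells and molecular layer interneurons was higher on every knockout array (10.23 to 10.27 against 10.12 to 10.22). For single genes, 14.9% of those tested had no overlap in either direction. The blood mean rested on Alas2 (-2.08) and Slc4a1 (-1.90). The other 3 measured blood genes had higher knockout means: Hba-a2 by 0.08, and S100a8 and S100a9 by 0.37 each. Knockout means were also higher for 2 of 6 oligodendrocyte genes and 1 of 6 meninges and fibroblast genes above the low-signal limit. No gene of the 3 lower lists passed the test, and the part of these lists in the receptor values was not tested. Knockout array 6 went against the label of sex-matched mice, with Eif2s3y, a Y-linked gene, at 11.80 against 3.19 to 3.43 on the other 5 arrays, and with Xist low. On that array the 3′ control probe of Gapdh exceeded the 5′ probe by 1.58, against 1.03 to 1.14 on the others. The differences of the receptor probes and of the genes named from the signalling lists are therefore given with and without it. In whole tissue, fewer cells of a type and less RNA per cell cannot be told apart.

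No receptor probe passed the test between genotypes. Of the 12 probes, 0 had a limma adjusted p under 0.05 in the fit of all 45037 probes, in which 10 probes, 0.0222%, passed. At an unadjusted p under 0.05, 1 of the 12 passed, against 7.61% of all probes. Adjusted p ran from 0.614 to 0.994. The knockout mean was higher for 7 probes and lower for 5, while 53.5% of all probes were higher in knockout, and the median difference was 0.02 (log2), against 0.01 over all probes. With 1 probe per gene, 0 of the 7 receptor genes passed, against 0.0355% of the 14067 genes tested, and the adjusted p ran from 0.52 to 0.992. All 7 genes were in that fit, 4 with a higher and 3 with a lower knockout mean, at a median of 0.00443 against 0.03 over all genes. The median absolute difference was 0.11 over all genes tested, and the median absolute difference of the 7 receptors was 0.04.

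**Figure D1:**
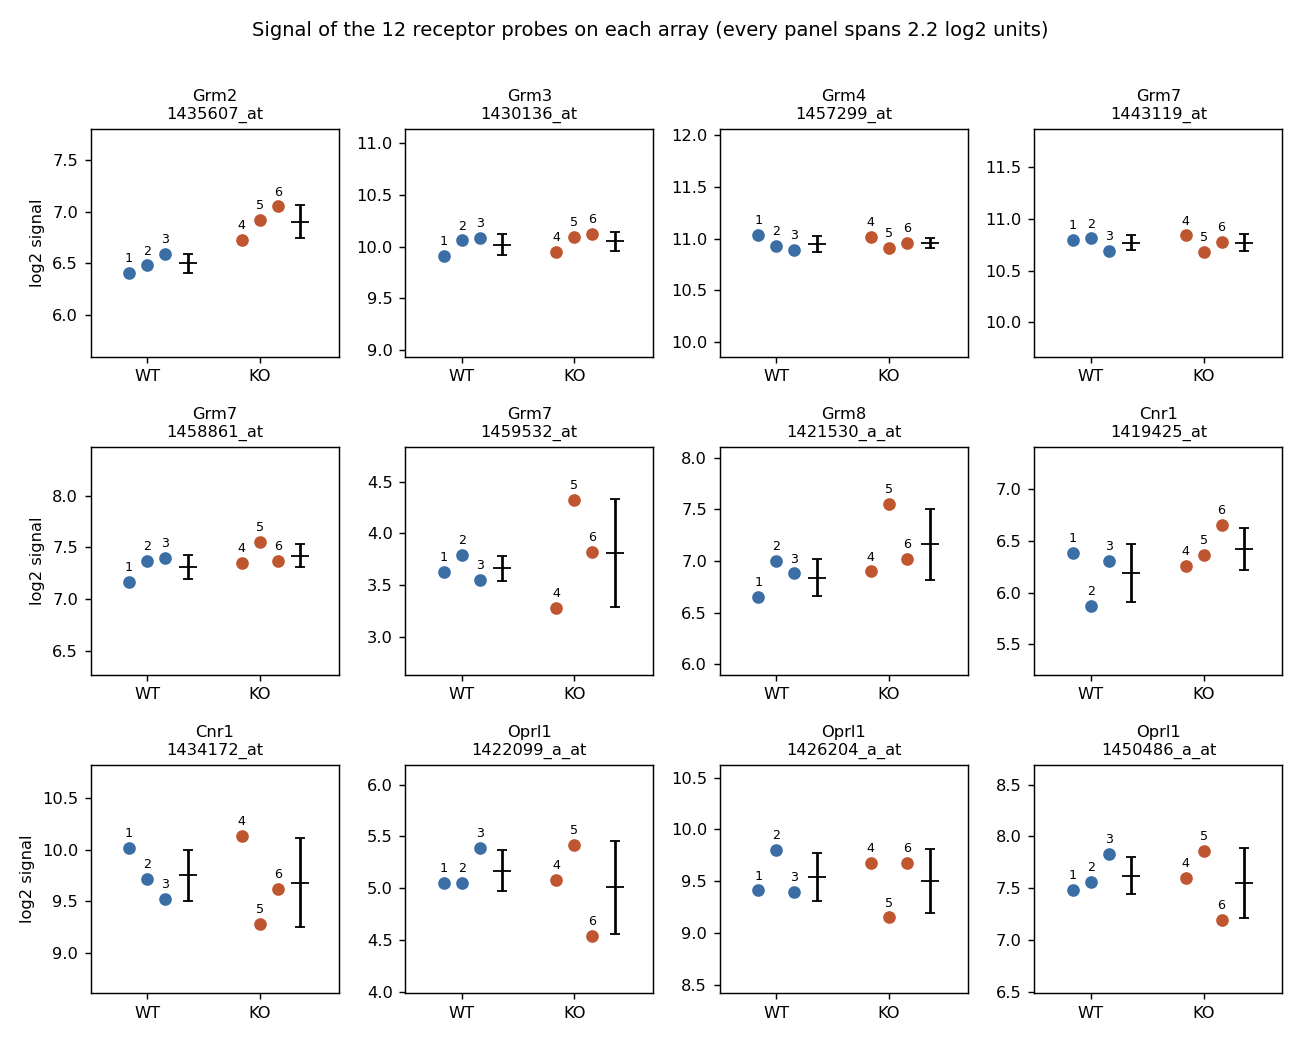
Log2 signal of each of the 12 receptor probes (y axis, every panel spanning the same range) in wild-type (WT, blue) and knockout (KO, orange) mice; points are single arrays with their number, and the bar to the right of each group is its mean ± SD (n = 3). The Grm2 panel is the one in which all knockout points, from 6.73 to 7.05, lie above all wild-type points, from 6.41 to 6.59.

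Among the group II receptors, Grm2 had the larger difference. Its probe 1435607_at, at the 49.9th percentile, read 6.41, 6.48 and 6.59 on wild-type arrays 1, 2 and 3 and 6.73, 6.92 and 7.05 on knockout arrays 4, 5 and 6. Every knockout array lay above every wild-type array, as was so in this direction for 8.25% of all probes and 10.1% of the genes tested. The means were 6.50 ± 0.09 and 6.90 ± 0.16 (SD, n = 3 each), a difference of 0.41 (SE 0.13), or 1.32-fold with a 95% interval of 1.08 to 1.63. The limma p was 0.014 before adjustment and 0.614 after it, so the difference did not pass. Without knockout array 6 it was 0.33 and its adjusted p 0.94, and without any 1 array it lay between 0.33 and 0.49. Of the 14067 genes tested, 3.39% had a larger absolute difference than Grm2.

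A further probe, 1431344_at, is annotated to 2 genes, Grm2 and Gm28111, and was not counted for either. It read 5.12, 5.47 and 5.54 in wild type, against 5.37, 4.84 and 4.88 in knockout. Its difference was -0.35 (SE 0.18; limma adjusted p = 0.68), opposite in sign to that of the Grm2 probe, and its groups overlapped. Over the 15 pairs of arrays, the 2 probes changed in the same direction in 5.

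Marker lists that include Golgi cells and unipolar brush cells, which are known to carry Grm2, were read beside it. The list for Golgi cells also holds genes of molecular layer interneurons, so not all its genes mark cells known to carry Grm2. Of 8 genes of Golgi cells and molecular layer interneurons, all 8 were above the low-signal limit of 4.70 (log2) and 0 passed the test. Their mean level lay between 10.12 and 10.22 on the wild-type arrays and between 10.23 and 10.27 on the knockout arrays. These ranges did not overlap, and for single genes 10.1% of those tested had no overlap in this direction. The genes of the list differed in sign. Higher in knockout were 5: Sorcs3 by 0.33, Slc32a1 and Kit by 0.17 each, Pvalb by 0.04 and Slc6a5 by 0.02. Gad1 (-0.10), Gad2 (-0.04) and Lgi2 (-0.01) were lower. Of 4 unipolar brush cell genes, 3 were above the limit and Lmx1a was below it; the mean of the 3 lay between 9.54 and 10.09 in wild type and between 9.80 and 9.95 in knockout. The part of these cells in the Grm2 values was not tested.

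Grm3, known from glia as well as Golgi cells, differed less than its arrays varied. Probe 1430136_at read 9.91, 10.06 and 10.08 in wild type, against 9.95, 10.09 and 10.12 in knockout, so that the groups overlapped. Its difference was 0.04 (SE 0.09; limma adjusted p = 0.935), with a 95% interval from 0.88-fold to 1.19-fold, and 0.00308 without knockout array 6. Of 7 astrocyte and Bergmann glia genes all were above the low-signal limit, and their mean level lay between 11.27 and 11.34 in wild type and between 11.17 and 11.39 in knockout. Although Grm2 and Grm3 differed in size of difference, they changed in the same direction in 13 of the 15 pairs of arrays.

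The group III receptors sit at the release sites of presynaptic terminals and dampen transmitter release. Grm4, which parallel fibre terminals carry, had nearly equal means in both genotypes. Probe 1457299_at, at the 91.1st percentile, read 11.04, 10.93 and 10.89 in wild type, against 11.02, 10.91 and 10.96 in knockout. The groups overlapped, and the difference was 0.00443 (SE 0.08; limma adjusted p = 0.991), and 0.01 without knockout array 6. Its 95% interval ran from 0.89-fold to 1.13-fold. Granule cell genes, all 7 measured ones above the low-signal limit, had a mean level between 12.00 and 12.22 in wild type and between 11.87 and 12.24 in knockout.

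Grm7, a low-affinity receptor of the active zone, had 3 probes of unequal brightness. The brightest, 1443119_at, read 10.80, 10.81 and 10.69 in wild type, against 10.84, 10.68 and 10.78 in knockout. Its difference was -0.0032 (SE 0.08; limma adjusted p = 0.994), with an interval from 0.88-fold to 1.13-fold. The second, 1458861_at, read 7.17, 7.37 and 7.40 in wild type, against 7.35, 7.55 and 7.37 in knockout, a difference of 0.11 (SE 0.13; adjusted p = 0.825). The third, 1459532_at, was the only member probe under the low-signal limit, at the 16.3rd percentile, and read 3.63, 3.79 and 3.55 against 3.28, 4.32 and 3.82. Knockout arrays 4 and 5 were the lowest and the highest of its 6 values, and its difference of 0.15 (SE 0.22) became -0.11 without array 5. Without knockout array 6 the 3 differences were -0.01, 0.14 and 0.14. The groups overlapped for each of the 3 probes.

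Grm8, a group III receptor of higher glutamate affinity, had the second largest difference. Probe 1421530_a_at read 6.65, 7.0 and 6.88 in wild type, against 6.90, 7.55 and 7.02 in knockout. Knockout array 5 stood above the other arrays, array 4 lay within the wild-type range and array 6 just above it, so the groups overlapped. The difference was 0.31 (SE 0.19; limma adjusted p = 0.702), or 1.24-fold with an interval from 0.92-fold to 1.66-fold. It was 0.12 without knockout array 5 and 0.38 without knockout array 6. Of all genes tested, 8.2% had a larger absolute difference.

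**Figure D2:**
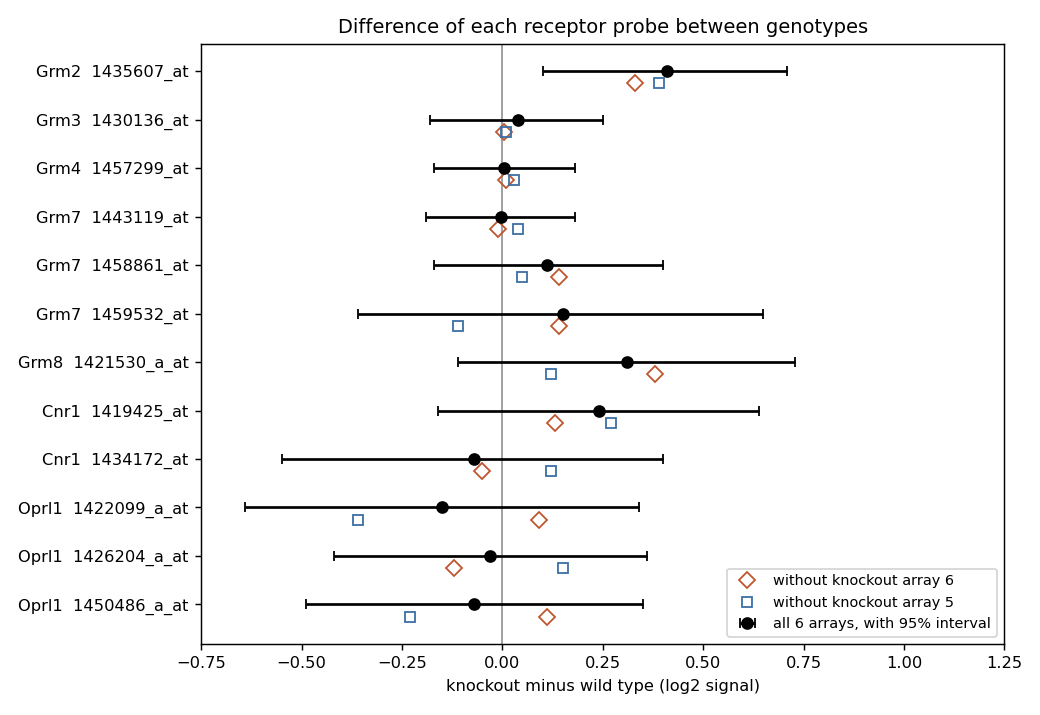
Knockout minus wild type in log2 signal (x axis) for the 12 receptor probes (y axis); black points with bars are the difference over all 6 arrays with its 95% limma interval, and open diamonds and squares the difference without knockout array 6 and without knockout array 5. The interval of Grm2, from 0.10 to 0.71, is the one that leaves out 0, and the Oprl1 probes change sign when knockout array 6 or 5 is left out.

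Cnr1, the receptor of retrograde endocannabinoid signals, had 2 probes that differed in sign. The brighter, 1434172_at, read 10.02, 9.72 and 9.52 in wild type, against 10.13, 9.28 and 9.62 in knockout. Knockout arrays 4 and 5 were its highest and lowest values, so the wild-type values lay between those of the knockout. Its difference was -0.07 (SE 0.21; limma adjusted p = 0.938), with an interval from 0.68-fold to 1.32-fold, and was -0.05 without knockout array 6 and 0.12 without knockout array 5. The dimmer probe, 1419425_at, read 6.38, 5.87 and 6.31 in wild type, against 6.26, 6.36 and 6.65 in knockout, a difference of 0.24 (SE 0.18; adjusted p = 0.742) with overlapping groups. Wild-type array 2 was low on it: leaving that array out gave 0.08, and leaving out knockout array 6 gave 0.13.

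Oprl1, the opioid-like receptor of nociceptin, had 3 probes, all of the suffix that the array maker gives to probes shared by transcripts of 1 gene. Probe 1426204_a_at read 9.41, 9.80 and 9.40 in wild type, against 9.68, 9.15 and 9.68 in knockout, a difference of -0.03 (SE 0.17; limma adjusted p = 0.969). Probe 1450486_a_at read 7.48, 7.56 and 7.83 in wild type, against 7.60, 7.86 and 7.19 in knockout, a difference of -0.07 (SE 0.18; adjusted p = 0.932). Probe 1422099_a_at read 5.05, 5.05 and 5.39 in wild type, against 5.08, 5.42 and 4.54 in knockout, a difference of -0.15 (SE 0.22; adjusted p = 0.869). Knockout array 6 was the lowest of all arrays on the last 2 probes, and array 5 the lowest on the first. Without knockout array 6 the 3 differences were -0.12, 0.11 and 0.09, and without knockout array 5 they were 0.15, -0.23 and -0.36. The sign of an Oprl1 difference thus rested on single arrays.

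Probes of 1 receptor gene did not always order the arrays alike. For Oprl1, 1422099_a_at and 1450486_a_at changed in the same direction in 14 of the 15 pairs of arrays, while 1426204_a_at did so in 2 and 3 pairs with them. For Grm7, the brightest probe shared the direction of the others in 3 and 4 pairs, and the others shared theirs in 10. The Cnr1 probes did so in 6. Over all 20474 pairs of probes of 1 gene with both probes above the low-signal limit, the median was 9 pairs of arrays, and 11% of probe pairs shared the direction in 4 or fewer. These are descriptions of 6 arrays, and the values of different probes on an array share its RNA.

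**Figure D3:**
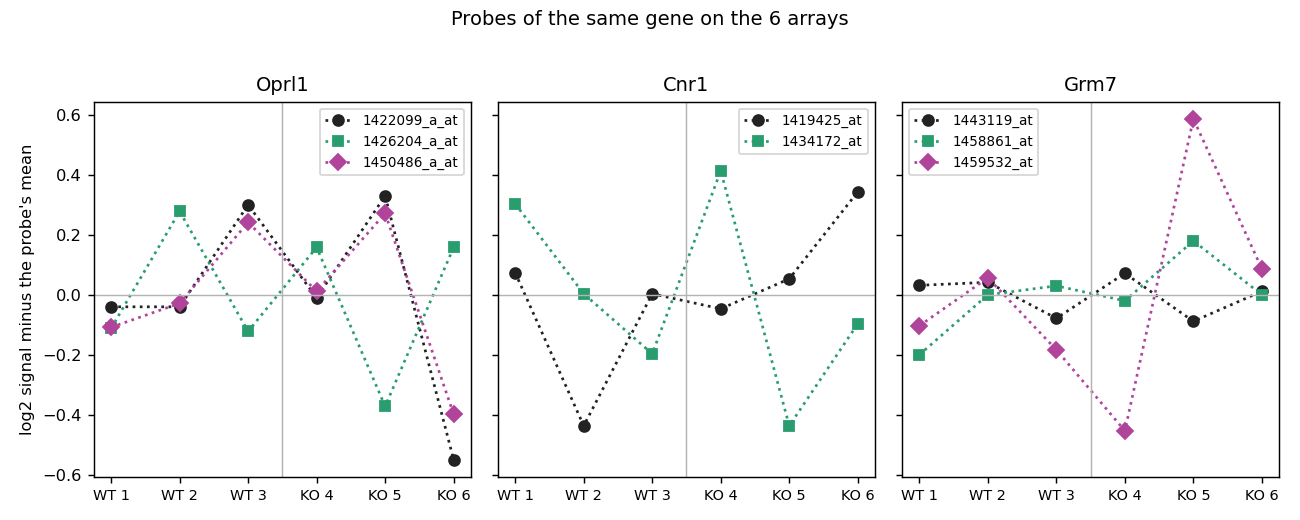
Log2 signal minus each probe's own mean over the 6 arrays (y axis) for the probes of Oprl1, Cnr1 and Grm7, by array (x axis; WT 1 to 3, KO 4 to 6); dotted lines only join the points of a probe. In the Oprl1 panel, 1422099_a_at and 1450486_a_at run together and are lowest on KO 6, where 1426204_a_at is above its mean.

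Between the brightest probes of the receptors, 2 sets were seen by array order. Grm2, Grm3 and Grm8 shared a direction in 12 or 13 of the 15 pairs of arrays. Grm7 shared its direction with Cnr1 in 14 pairs, with Oprl1 in 12 and with Grm4 in 11, and Cnr1 with Grm4 in 12 and with Oprl1 in 11. Grm4 and Oprl1 did so in 8. Between the sets the count ran from 3, for Grm3 with Cnr1, to 8, for Grm8 with Oprl1. The sets rest on the brightest probes, and other probes of Oprl1, Grm7 and Cnr1 often ordered the arrays differently, as given above. No count over unrelated genes was made beside them. The sets were formed after the values were seen, and no test was made of them.

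The genes whose values over the 6 arrays were closest to those of Grm2 and Grm8 were found by the mean absolute difference of profiles, each gene taken minus its own mean, among 14066 genes. For Grm2 they were Alad, an enzyme of haem synthesis, at 0.014, the kinase gene Cdkl3 at 0.016 and the phospholipase gene Pla1a at 0.031. For Grm8 they were Hap1, a partner of huntingtin, at 0.021, the prokineticin receptor Prokr2 at 0.032 and the epiplakin gene Eppk1 at 0.034. The closest other receptor was Grm3 for Grm2, at 0.185, and Grm2 for Grm8, at 0.179. None of the genes of closest profile passed the test (limma adjusted p from 0.479 to 0.647). They were picked as the nearest of 14066 genes on 6 arrays, and no distances between other genes were set beside them. Shared regulation with Grm2 or Grm8 was not tested.

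The rest of the signalling route was read from 6 lists with 125 genes, of which 111 had a single-gene probe and 96, those above the low-signal limit, were tested. By limma 0 of the 96 passed; at an unadjusted p under 0.05 there were 8, against 8.57% of all genes tested. The groups did not overlap for 13 genes with knockout higher and 3 with knockout lower, against 14.9% of all genes in either direction. Knockout means were higher for 64 genes and lower for 32, and 56.7% of all genes tested had a higher knockout mean. The median difference was 0.06, against 0.03 over all genes.

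Among other receptors coupled to Gi or Go, 21 of 34 were tested, 0 passed, and the median difference was -0.00185. The adrenergic receptor Adra2c, a relative of the unmeasured Adra2a, read 7.04, 7.27 and 7.04 in wild type, against 7.58, 7.43 and 8.12 in knockout. All its knockout arrays lay above its wild-type arrays, and its difference was 0.59 (SE 0.18; limma adjusted p = 0.529), or 0.39 without knockout array 6, the highest. The galanin receptor Galr1 had a difference of -0.56 (SE 0.43; adjusted p = 0.669), which ran from -1.06 without knockout array 4 to -0.11 without knockout array 5. It was -0.34 without wild-type array 1 and -0.52 without knockout array 6. Of 12 relatives of the members that couple to Gq or Gs, 2 were tested and 0 passed: the group I glutamate receptor Grm5 at 0.32 (adjusted p = 0.638) and the adrenergic receptor Adra1b at -0.25 (adjusted p = 0.612). The Grm5 difference was 0.08 without knockout array 5, 0.16 without wild-type array 2 and 0.41 without knockout array 6. The Adra1b difference was -0.23 without knockout array 6.

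Genes that make or remove the receptors' ligands numbered 29 tested of 33, with 0 passing and a median of 0.10. The largest differences in this list were those of Th, the first enzyme of catecholamine synthesis, at -0.37 (SE 0.21; limma adjusted p = 0.612), and of the choline transporter Slc5a7 at -0.33 (SE 0.13; adjusted p = 0.574). Slc5a7 read 5.60, 5.67 and 5.59 in wild type, against 5.06, 5.46 and 5.38 in knockout, with no overlap. Th was -0.60 without wild-type array 1 and -0.49 without knockout array 6, and Slc5a7 was -0.20 without knockout array 4 and -0.37 without knockout array 6. The dopamine transporter gene Slc6a3, in the brainstem and midbrain list, was named after its values were seen. It read 11.75, 12.14 and 12.15 in wild type, against 11.20, 10.19 and 10.66 in knockout. Its groups did not overlap, as was so for 14.9% of all genes tested in either direction. Its difference was -1.33 (SE 0.23, limma adjusted p = 0.203), which did not pass. The other 4 genes of that list above the low-signal limit had higher knockout means. Their differences were 0.07 for Slc6a4, 0.01 for Tph2, 0.16 for Slc6a2 and 0.60 for Pou4f1. Dbh, of the ligand list, was higher by 0.25. Without knockout array 6, Slc6a2 was 0.32 and Dbh 0.23. The part of dopamine neurons in the Th values was not tested. Chat and Slc18a3, which mark cholinergic terminals together with Slc5a7, were below the low-signal limit.

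Of the G protein alpha and beta subunits and the R7 RGS genes with their membrane partners Rgs7bp and Gpr158, 14 of 14 were tested and 0 passed, at a median of 0.13. The Gb5 partners Rgs11 and Rgs6 had the largest differences, 0.54 (SE 0.19; limma adjusted p = 0.553) and 0.36 (SE 0.18; adjusted p = 0.607). Rgs11 read 5.53, 6.16 and 5.97 in wild type, against 6.21, 6.38 and 6.72 in knockout, with no overlap, and was 0.40 without knockout array 6. Rgs6 was 0.16 without knockout array 5 and 0.46 without knockout array 6. Both read dim against the low-signal limit of 4.70. Their wild-type means were 5.89 for Rgs11, at the 43.3rd percentile, and 5.14 for Rgs6, at the 35.1st. All 13 effector genes were tested and 0 passed, at a median of 0.06. The GIRK channel genes Kcnj9 and Kcnj5 had differences of 0.28 (adjusted p = 0.706) and 0.25 (adjusted p = 0.63). Kcnj9 rested on knockout array 4, which read 9.78 against 8.66 to 9.07 on the others, and was -0.03 without it. It was 0.18 without wild-type array 3, 0.52 without knockout array 5 and 0.36 without knockout array 6. Kcnj5 was 0.15 without wild-type array 1, 0.10 without knockout array 5 and 0.30 without knockout array 6.

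Receptor scaffold and desensitisation genes numbered 17 tested of 19, with 0 passing and a median of 0.05. Grk4, a receptor kinase, read 5.81, 6.13 and 6.04 in wild type, against 6.36, 6.48 and 6.53 in knockout. Its difference was 0.46 (SE 0.12; limma adjusted p = 0.464) and 0.43 without knockout array 6. Elfn2, an adhesion protein that binds group III glutamate receptors across the synapse, read 5.18, 5.47 and 5.48 in wild type, against 5.53, 6.02 and 5.85 in knockout. Its difference was 0.42 (SE 0.16; adjusted p = 0.573), its groups did not overlap, and it was 0.40 without knockout array 6.

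**Figure D4:**
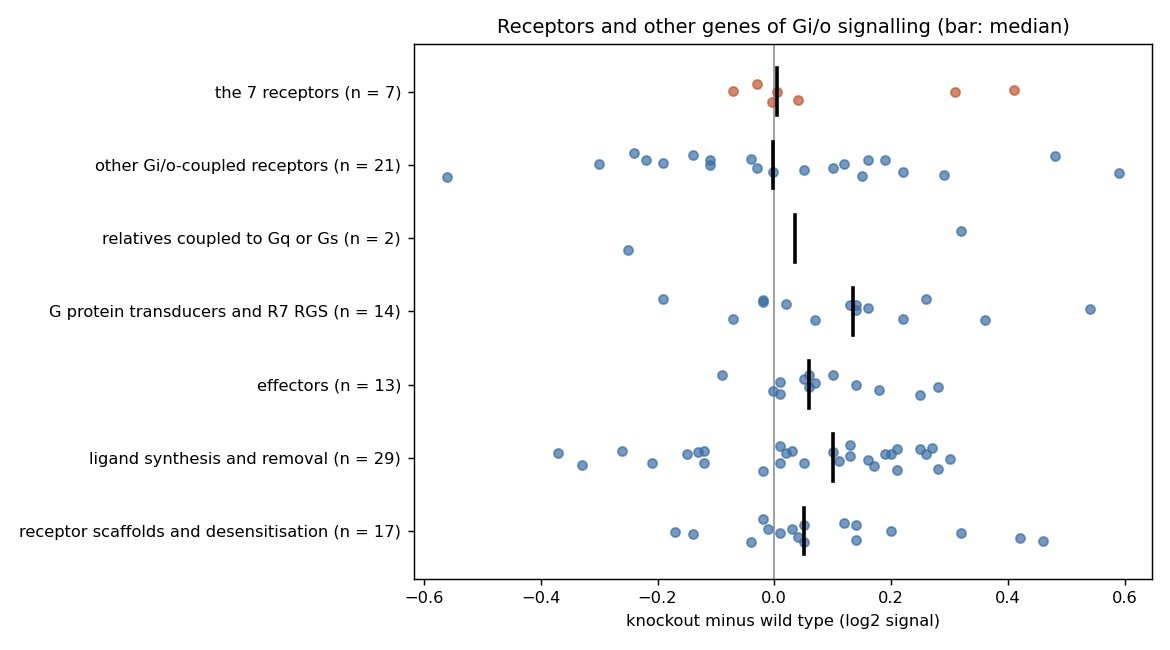
Knockout minus wild type in log2 signal (x axis) for the 7 receptors (orange) and the tested genes of 6 lists of Gi/o signalling (blue), 1 point per gene; black bars are list medians and the vertical scatter within a list has no meaning. Points lie between -0.56 for Galr1 and 0.59 for Adra2c, with list medians from -0.00185 to 0.13.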

How the data were processed

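The authors' deposited table holds log2 signals of 45101 probes on 6 arrays. RMA and Partek were used, per the submitters' processing notes, with no version. RMA corrects background, quantile-normalizes and summarises probe sets. A common distribution of signals is thereby imposed on all arrays before the summary, and the summarised values keep small differences between arrays. Scanner files, detection calls and scan dates were not used here, and the number of arrays limits the precision. Groups come from the labels' titles.

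The 64 control probes were left out. The platform annotation gives 34945 probes 1 gene, 932 several and 9160 none listed; symbols were updated through a RefSeq table (GRCm38.p6), which held 34741. limma 3.58.1 in R 4.3.3 compared knockout with wild type, with an intensity trend, two-sided, with Benjamini-Hochberg adjustment and a threshold of 0.05, on all 45037 probes without a filter. It was also fitted on 14067 genes, each by its brightest probe and above the 30th percentile of probe means (4.70); unless a value is given as a probe's, it is from the gene fit. SE and intervals come from these fits. Exact permutation of 3 against 3 arrays cannot go below p = 0.1. On simulated data, for this comparison, the probe fit on 45037 probes recovered 22.8% of differences of 0.5 and 92.8% of differences of 1. The gene fit on 14067 genes recovered 50.4% and 98%. The simulation planted equal numbers of changes of 0.5, 1, 2 and 4, with independent noise. It planted more changes than passed in these data, 10 probes and 5 genes, which eases the adjustment. These shares can therefore be too high for these data, where Slc6a3 at -1.33 and Alas2 at -2.08 did not pass.

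Members and lists were chosen with earlier results of these data known. Named genes are all members, Gnb5, and per list the passing genes or else the 2 of largest absolute difference. The 3 genes of closest profile for the 2 members of largest difference are also named. Lmx1a, Chat, Slc18a3 and Slc6a3, and the sex-linked genes, were named as markers or for a missing level. Dbh and the other marker genes were named after their values were seen. Array pairs count the 15 pairs in which 2 probes change the same way. Alternatives were other filters, normalizations, probe summaries, variance models, array weights, a threshold of 0.1 and each array left out.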

Additional observations from a re-analysis of the deposited data

How the results depend on the processing

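The count of 0 passing receptor probes, receptor genes and genes of the 6 other lists was 0 in every alternative run: other filters, normalizations, probe summaries and variance models, array weights, a threshold of 0.1 and each array left out. The lowest adjusted p of a receptor in any of them was 0.239, for Grm2 without knockout array 4. Over the 12 receptor probes and the 9 alternatives that can move a difference, 20 of 108 recomputed differences changed sign. The other filters and variance models leave a difference as it is. Grm2 and Grm8 kept their sign in all, from 0.33 to 0.49 and from 0.12 to 0.44, as did the Grm7 probe 1458861_at (0.04 to 0.16) and the Cnr1 probe 1419425_at (0.08 to 0.34). With array medians subtracted Grm4 was -0.02, and with a second quantile normalization the brightest Grm7 probe was 0.01. With array weights Grm7 was 0.03, Cnr1 0.02 and Oprl1 0.05, and with the mean of a gene's probes Grm7 was 0.09 and Cnr1 0.08. Over the arrays left out in turn, Grm3 ran from -0.02 to 0.09, Grm4 from -0.03 to 0.05, Grm7 from -0.04 to 0.04, Cnr1 from -0.30 to 0.12 and Oprl1 from -0.12 to 0.15 by their brightest probes. The dim Grm7 probe 1459532_at ran from -0.11 to 0.41, the Oprl1 probes 1422099_a_at from -0.36 to 0.09 and 1450486_a_at from -0.23 to 0.11, and Kcnj9 from -0.03 to 0.52. With the mean of a gene's probes Adra2c was 0.20, Grk4 0.18, Galr1 -0.24, Grm5 0.10, Rgs6 0.23 and Kcnj9 0.07, and with array weights Galr1 was -0.36 and Grm5 0.19. Over the arrays left out, Galr1 ran from -1.06 to -0.11. The median of the 7 receptor genes ran from -0.03 to 0.12 over all alternatives. No paired analysis was possible, because the labels call the mice littermates but give no numbers that pair them. An effect of litter was not tested. The cause of these changes was not tested.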

Other observations

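The arrays did not share the extreme values of the signalling genes evenly. Among the 96 tested genes of the 6 lists, 34 were highest on knockout array 5 (35.4%) and 36 were lowest on wild-type array 1 (37.5%). Over all 14067 genes tested, 27.7% were highest on knockout array 5 and 31.9% were lowest on wild-type array 1. The lowest value was on knockout array 5 for 19.6% of all genes tested and 19.8% of the genes of the lists. By their brightest probes, 3 of the 7 receptors (Grm2, Grm3 and Grm8) were lowest on wild-type array 1 and 3 (Grm7, Cnr1 and Oprl1) on knockout array 5. The other probes of these last receptors differed. Knockout array 5 was the highest on the other Grm7 and Oprl1 probes, and the other Cnr1 probe was lowest on wild-type array 2. Wild-type array 1 and knockout array 5 were chosen after their values were seen.

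The upstream windows of the receptors differed in base composition. A window of Cnr1 held 5 GC boxes, 36 CpG dinucleotides and 79.2% G or C, and a window of Grm8 held 29 CpG dinucleotides and 68.4%. The 3 windows of Oprl1 held 3, 1 and 2 CpG dinucleotides and 44.4%, 54.8% and 48.8% G or C, with no GC box. Grm4 has no window in the table.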
